A study of Mus musculus with 6 samples.

Results

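The transcripts of 9 enzymes of peroxisomal fatty acid oxidation were examined in the livers of control mice and of mice lacking *Spns1* (g*Spns1*-cKO). They are *Acox2*, *Ehhadh*, *Hsd17b4*, *Acaa1a*, *Acaa1b*, *Scp2*, *Phyh*, *Crat* and *Nudt7*, chosen by gene name for their roles in peroxisomal α- and β-oxidation and in the handling of its products, and they are 9 of the 54532 genes measured. The g*Spns1*-cKO mice, labelled SPNS1 KO, carried *Spns1* fl/fl alleles and Cre-ERT2 at the Rosa26 locus, which is active throughout the body. Tamoxifen given after birth was meant to delete exon 3 of *Spns1* in hepatocytes and in other cells of the liver. The extent of deletion in each cell type is not given in the sources used here. The control mice are labelled WT, whereas the methods describe *Spns1* fl/fl littermates without Cre. Whether they received tamoxifen, and the age of either group at collection, are not given in the sources used here. RNA-Seq was done on 3 livers of each group, 1 library per liver. All 6 livers read as male, with at most 5 counts of *Xist* and 1731 to 2568 counts of the Y-linked *Ddx3y* per library. SPNS1 is a lysosomal transporter of lysolipids, and the comparison asks which liver transcripts differed after its deletion.

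Peroxisomes shorten very long-chain fatty acids, branched-chain fatty acids and the side chains of bile acid precursors, substrates that mitochondria handle poorly. In each round of β-oxidation an acyl-CoA oxidase introduces a double bond and gives off hydrogen peroxide, a bifunctional protein hydrates and dehydrogenates the product, and a thiolase cleaves off a short acyl-CoA. Phytanic acid, whose methyl branch blocks this sequence, is first shortened by α-oxidation. In rodent liver the nuclear receptor PPARα, paired with RXR, is a known activator of many of these genes.

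The libraries held between 30350002 and 35295611 counts. Counts were scaled by TMM, whose factors were between 0.834 and 0.873 in control and between 1.16 and 1.18 in g*Spns1*-cKO libraries. The targeted gene *Spns1* was at 35.8, 50.7 and 34.6 CPM (each count relative to its library's TMM-adjusted depth) in control livers and at 17.8, 30.6 and 17.7 CPM in g*Spns1*-cKO livers. These ranges did not overlap, and the log2 fold change was -0.87 (SE 0.25, edgeR adjusted p = 0.0300). The call was lost without control replicate 2, g*Spns1*-cKO replicate 1 or g*Spns1*-cKO replicate 3, with edgeR adjusted p of 0.0785, 0.0910 and 0.0830. It was also lost under both other scalings, at a log2 fold change of -0.43 with library size only and of -0.74 with upper-quartile scaling (edgeR adjusted p = 0.212 and 0.0635). Counts over the whole gene include reads from the exons that Cre leaves in place.

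Of the 9 transcripts, 7 were lower in g*Spns1*-cKO livers and 0 were higher. Mean levels of the 7 were between 11.5% and 49.6% of control, in the order *Nudt7*, *Acaa1b*, *Phyh*, *Crat*, *Acaa1a*, *Scp2* and *Hsd17b4* from the deepest fall to the shallowest. *Ehhadh* and *Acox2* did not pass the threshold, with means at 99.8% and 83.3% of control. All 9 had enough counts to be tested. The quasi-likelihood test of edgeR, with a limit of 0.05 on the Benjamini-Hochberg adjusted p, called 41.8% of the 15449 tested genes, 20.5% lower and 21.3% higher. The groups of the 7 transcripts did not overlap, which held for 54.0% of the tested genes in either direction and for 26.9% in this one. The median log2 fold change was -1.20 over the 9 transcripts and 0.01 over all tested genes. Bulk RNA cannot tell fewer cells of a type from less RNA per cell.

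Scaling set how many genes were called in each direction. TMM gave 3287 genes higher and 3166 lower, scaling by library size only gave 7285 higher and 971 lower, and upper-quartile scaling gave 4111 higher and 2240 lower. Over all genes the median moved to 0.46 with library size only and to 0.14 with upper-quartile scaling, and over the 9 transcripts to -0.76 and -1.07. The 7 falls passed the threshold under each of these scalings. The 9 transcripts lay 1.22 below all genes by their medians each time. Scaling shifts all genes nearly alike, so this distance could hardly move and adds no evidence of its own.

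**Figure D1:**
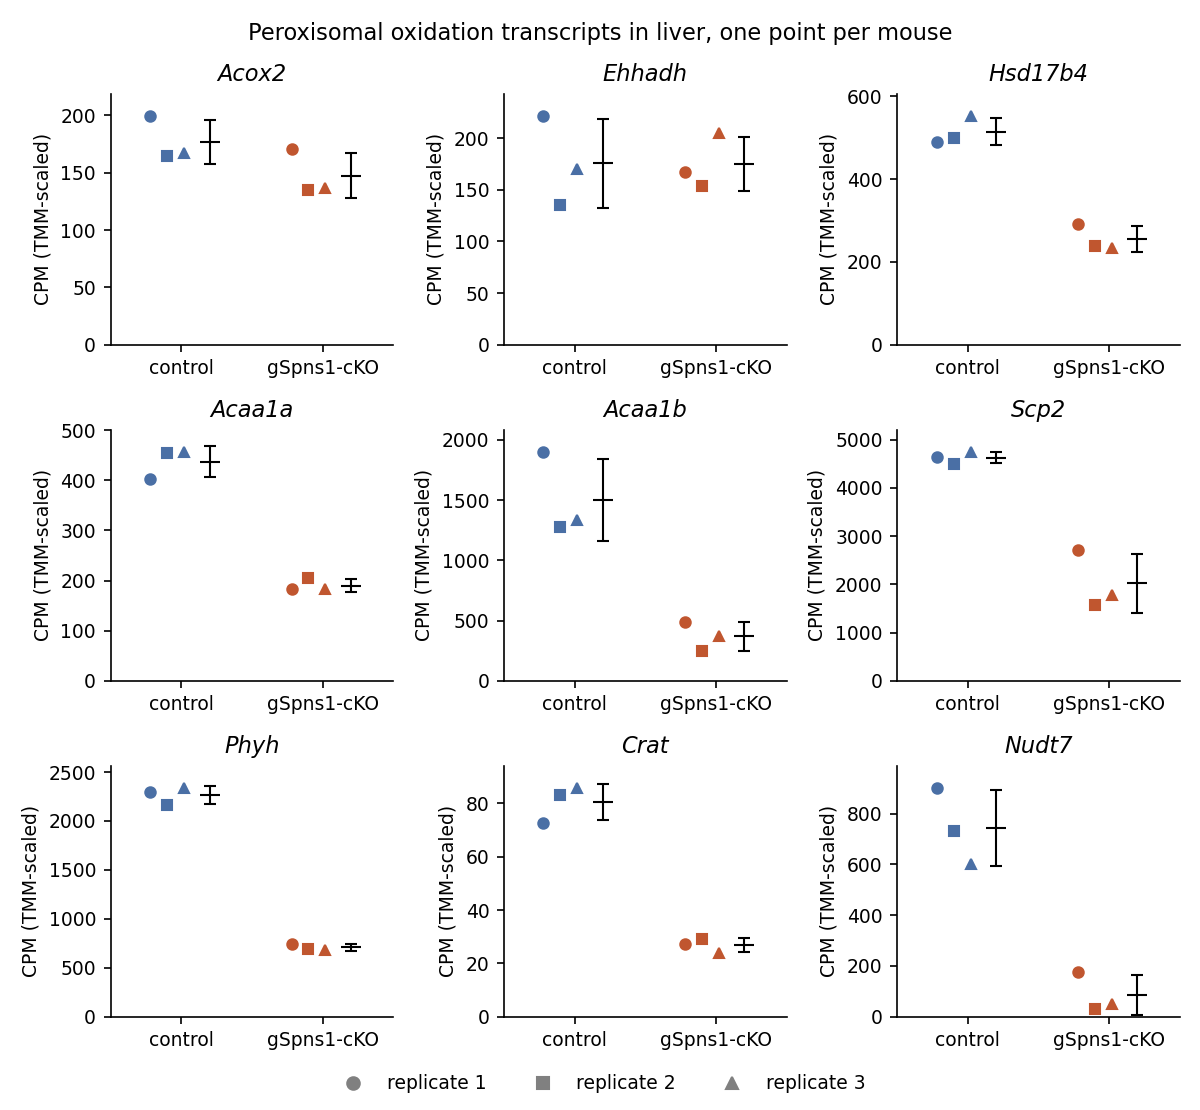
Level of each transcript in CPM after TMM scaling (vertical axes) in 3 control and 3 g*Spns1*-cKO livers, with 1 point per mouse, marker shapes for the replicate number and bars for the mean ± SD. In all panels except *Acox2* and *Ehhadh* every g*Spns1*-cKO point lies below every control point, and in *Scp2* and *Nudt7* g*Spns1*-cKO replicate 1 lies above the other g*Spns1*-cKO livers.

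**Figure D2:**
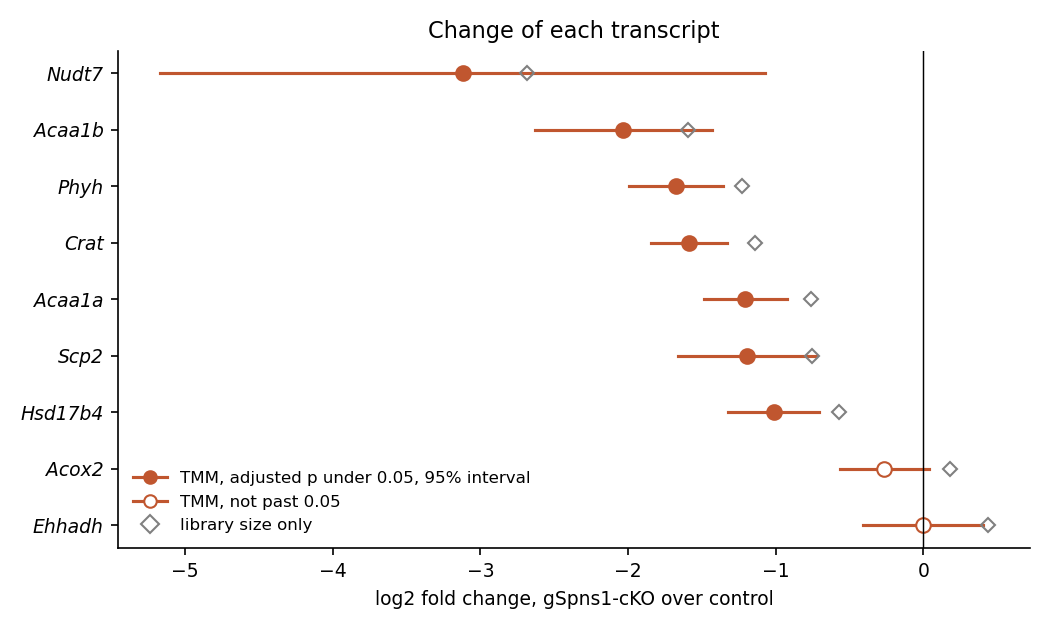
Log2 fold change of each transcript, g*Spns1*-cKO over control, with its 95% interval from edgeR after TMM scaling (circles, filled where the adjusted p was under 0.05) and with scaling by library size only (grey diamonds). The 7 filled circles have diamonds on the same side of 0, while *Acox2* and *Ehhadh* move to 0.18 and 0.44 with library size only.

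The stretches before the start sites of 5 of the genes are shown because they hold both peroxisomal thiolase paralogs, the transcript that fell most, a transcript that did not pass the threshold and the AGGTCA match that lies before a start site. Each is the 250 bases before a RefSeq start site on GRCm38.p6, 5′ to 3′ on the strand of the gene. Capitals mark AGGTCA, the half-site that RXR heterodimers bind, and GGGCGG, the GC box bound by Sp1, each on either strand.
Nudt7 (chr8:114133324-114133573, plus strand): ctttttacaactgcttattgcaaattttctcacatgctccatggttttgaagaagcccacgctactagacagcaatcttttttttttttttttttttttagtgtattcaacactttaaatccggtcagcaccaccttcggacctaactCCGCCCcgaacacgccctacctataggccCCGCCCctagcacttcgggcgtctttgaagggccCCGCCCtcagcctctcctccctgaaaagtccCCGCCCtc
Acaa1b (chr9:119157094-119157343, minus strand): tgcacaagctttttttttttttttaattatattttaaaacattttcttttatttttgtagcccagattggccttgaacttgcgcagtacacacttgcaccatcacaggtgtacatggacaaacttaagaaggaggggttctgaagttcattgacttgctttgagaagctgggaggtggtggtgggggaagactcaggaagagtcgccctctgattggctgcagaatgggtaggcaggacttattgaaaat
Acaa1a (chr9:119341044-119341293, plus strand): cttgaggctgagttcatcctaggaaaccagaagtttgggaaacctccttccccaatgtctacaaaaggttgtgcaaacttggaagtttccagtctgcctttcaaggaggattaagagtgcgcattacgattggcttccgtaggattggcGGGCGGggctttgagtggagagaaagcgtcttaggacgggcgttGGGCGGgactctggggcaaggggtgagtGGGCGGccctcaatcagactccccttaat
Ehhadh (chr16:21787835-21788084, minus strand): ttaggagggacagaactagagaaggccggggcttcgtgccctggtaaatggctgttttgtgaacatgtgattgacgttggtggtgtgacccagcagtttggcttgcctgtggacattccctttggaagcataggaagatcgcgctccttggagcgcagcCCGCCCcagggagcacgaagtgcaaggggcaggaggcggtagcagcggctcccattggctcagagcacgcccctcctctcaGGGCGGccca
Scp2 (chr4:108118548-108118797, minus strand): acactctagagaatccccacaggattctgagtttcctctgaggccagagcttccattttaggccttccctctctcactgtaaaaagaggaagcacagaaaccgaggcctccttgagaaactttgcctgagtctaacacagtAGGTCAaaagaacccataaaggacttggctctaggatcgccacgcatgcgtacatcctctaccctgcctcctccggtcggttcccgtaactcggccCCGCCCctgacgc

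RefSeq start sites were matched for 7 of the 9 genes. In windows of 300 bases, which add the 50 bases after the start, GGGCGG was found in *Acaa1a*, *Ehhadh*, *Nudt7* and *Scp2*, and in 35.7% of all 32851 windows. AGGTCA was found 109 bases before the start in *Scp2* and 36 bases after it in *Phyh*, and in 16.3% of all windows. The direct repeat AGGTCANAGGTCA, the element that PPARα and RXR bind together, was in 0.0396% of all windows and in 0 of the 7 genes. Its looser form AGGNCANAGGNCA, which includes the first, was in 0.381% of all windows and in 0 of the 7 genes. Both strands were searched. At shares this low, 0 of 7 genes was the likely outcome for any genes, so no conclusion is drawn from it. Sequence outside the 300 bases was not searched. GC boxes stood before *Ehhadh*, which did not pass the threshold, and before *Nudt7*, *Acaa1a* and *Scp2*, which fell. The *Acaa1b* window held neither motif, with 4 CpG dinucleotides and 43.7% G and C, against 10 and 53.3% in its paralog *Acaa1a*. The start sites shown for *Acaa1a*, *Nudt7* and *Scp2* lie inside the annotated genes.

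Levels were compared between genes on the deposited FPKM scale, which divides by gene length. That length is all exon bases of the gene model, such as 4414 for *Acaa1a* and 1962 for *Acaa1b*. Transcripts shorter than this length would read too low, so the order between genes depends on it. In control livers *Scp2* led with a mean of 1321 FPKM, followed by *Phyh* at 1187 and *Acaa1b* at 759 FPKM. *Hsd17b4* at 150 and *Nudt7* at 131 FPKM came next and overlapped, as did *Ehhadh* at 58.4 and *Acox2* at 47.4 FPKM, with *Acaa1a* at 98.5 FPKM between these pairs. *Crat* was lowest at 14.9 FPKM, and the other neighbours in this order had separate ranges. In g*Spns1*-cKO livers *Scp2*, *Phyh*, *Acaa1b* and *Hsd17b4* kept the first 4 places, at 575, 370, 185 and 74.0 FPKM. *Ehhadh* followed at 58.0 FPKM, and *Nudt7* was now at 15.02 FPKM, between *Acox2* at 39.3 and *Crat* at 4.91 FPKM. *Acaa1a*, at 42.4 FPKM, overlapped with *Acox2*, the only neighbours in the g*Spns1*-cKO order to do so.

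The summed level of the 9 transcripts was between 3564 and 3985 FPKM in control livers and between 1142 and 1671 FPKM in g*Spns1*-cKO livers. The share of *Scp2* went from 35.1% in control to 42.2% in g*Spns1*-cKO livers, and that of *Ehhadh* from 1.55% to 4.26%. *Acaa1b* went from 20.2% to 13.6% and *Nudt7* from 3.48% to 1.102%, all by the group means and without a test.

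**Figure D3:**
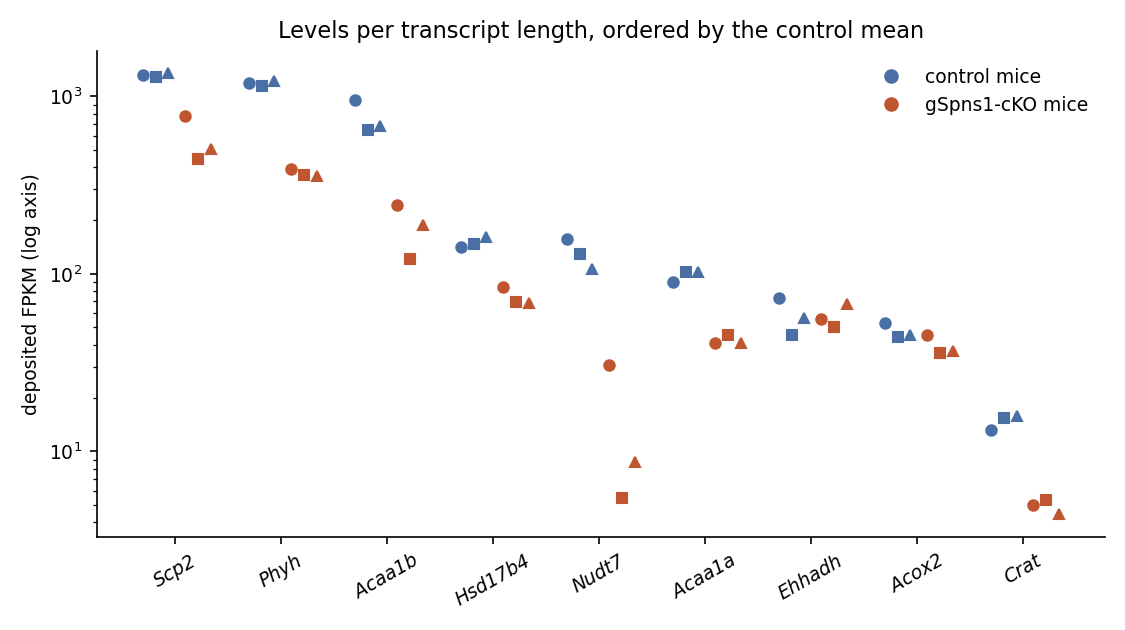
Deposited FPKM of each transcript on a log axis, ordered by the control mean, with 1 point per liver in each group. *Scp2*, *Phyh* and *Acaa1b* are highest in both groups, and *Nudt7* moves from above *Acaa1a*, *Ehhadh* and *Acox2* in control livers to below them in g*Spns1*-cKO livers.

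Acyl-CoA oxidases catalyze the first step of β-oxidation. *Acox2* (ENSMUSG00000021751, chr14:8225511-8259353, minus strand), an oxidase for bile acid intermediates, was at 199, 164 and 167 CPM in control livers and at 170, 135 and 137 CPM in g*Spns1*-cKO livers. The groups overlapped, because g*Spns1*-cKO replicate 1 lay above control replicates 2 and 3. The log2 fold change of *Acox2* was -0.26, with a 95% interval from -0.56 to 0.04 (edgeR adjusted p = 0.144). It passed the threshold without g*Spns1*-cKO replicate 1, at -0.38 (edgeR adjusted p = 0.0352), and was 0.18 with scaling by library size only (edgeR adjusted p = 0.283).

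Liver peroxisomes hold a pair of bifunctional proteins, which work through opposite stereoisomers. *Hsd17b4* (ENSMUSG00000024507), the D-bifunctional protein needed for branched-chain substrates and bile acid precursors, was at 491, 501 and 552 CPM in control livers and at 292, 239 and 235 CPM in g*Spns1*-cKO livers. Every g*Spns1*-cKO liver lay well below the lowest control liver. For *Hsd17b4* the log2 fold change was -1.01 (SE 0.14, edgeR adjusted p = 0.000357). *Ehhadh* (ENSMUSG00000022853, chr16:21761287-21787807, minus strand), the L-bifunctional protein, which also acts in the oxidation of dicarboxylic acids, was at 221, 136 and 170 CPM in control livers and at 168, 153 and 204 CPM in g*Spns1*-cKO livers. The control range of *Ehhadh* enclosed the g*Spns1*-cKO range. Its log2 fold change was -0.0028, with a 95% interval from -0.41 to 0.41 (edgeR adjusted p = 0.992), and with scaling by library size only it was 0.44 (edgeR adjusted p = 0.0634).

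The ratio of their counts within a library compares these responses without any scaling. There were 0.450, 0.271 and 0.308 *Ehhadh* counts per *Hsd17b4* count in control livers, against 0.574, 0.641 and 0.872 in those of g*Spns1*-cKO mice. All g*Spns1*-cKO ratios lay above all control ratios, a 2.05-fold difference (two-sided exact permutation p = 0.1, the smallest that 3 against 3 livers allow).

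Thiolases carry out the last step. *Acaa1b* (ENSMUSG00000010651, chr9:119148023-119157093, minus strand), a 3-ketoacyl-CoA thiolase, was at 1895, 1277 and 1335 CPM in control livers and at 485, 243 and 374 CPM in g*Spns1*-cKO livers. Control replicate 1 was the highest and g*Spns1*-cKO replicate 2 the lowest, and the groups were far apart. *Acaa1b* had a log2 fold change of -2.03 (SE 0.27, edgeR adjusted p = 0.000425). Its paralog *Acaa1a* (ENSMUSG00000036138, chr9:119339676-119350299, plus strand) was at 403, 454 and 456 CPM in control livers and at 182, 205 and 183 CPM in g*Spns1*-cKO livers. The livers of a group lay close together for *Acaa1a*, with means at 438 ± 30.2 and 190 ± 12.7 CPM (SD, n = 3). Its log2 fold change was -1.20 (SE 0.13, edgeR adjusted p = 7.4e-05).

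The paralogs share sequence, so part of their reads cannot be assigned with certainty. Of the 50-base stretches in *Acaa1b* transcripts, 30.5% also occurred in another gene, all of them in *Acaa1a*, and for *Acaa1a* the share was 12.9%. Summed before the fit, they fell by 1.80 on the log2 scale (edgeR adjusted p = 8.42e-05). There were 4.71, 2.81 and 2.93 *Acaa1b* counts per *Acaa1a* count in control livers, against 2.66, 1.19 and 2.05 in those of g*Spns1*-cKO mice. The ratios did not overlap, with a 1.81-fold lower ratio in g*Spns1*-cKO livers (two-sided exact permutation p = 0.1, the smallest possible), although g*Spns1*-cKO replicate 1 came close to control replicate 2. *Acaa1a* also shares 290 exonic bases with *Myd88* on the opposite strand, which had between 421 and 563 counts in each library.

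*Scp2* (ENSMUSG00000028603, chr4:108043839-108144998, minus strand) encodes a thiolase for branched-chain and bile acid intermediates and, from a shorter transcript, a sterol carrier protein without thiolase activity, which counts per gene do not separate. It was at 4648, 4501 and 4736 CPM in control livers and at 2721, 1581 and 1770 CPM in g*Spns1*-cKO livers. The control livers were within a narrow range, while g*Spns1*-cKO replicate 1 was well above the other g*Spns1*-cKO livers. The log2 fold change of *Scp2* was -1.19 (SE 0.21, edgeR adjusted p = 0.00153), and without g*Spns1*-cKO replicate 1 it was -1.47. Of the 50-base stretches in *Scp2* transcripts, 29.7% also occurred in the pseudogene *Scp2-ps2*, whose counts were between 1943 and 4412 and whose log2 fold change was -1.13 (edgeR adjusted p = 0.000316). There were 0.494, 0.385 and 0.378 counts of the summed *Acaa1a* and *Acaa1b* per *Scp2* count in control livers, against 0.245, 0.283 and 0.314 in those of g*Spns1*-cKO mice. The ratios did not overlap and were 1.49-fold lower in g*Spns1*-cKO livers (two-sided exact permutation p = 0.1, the smallest possible).

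**Figure D4:**
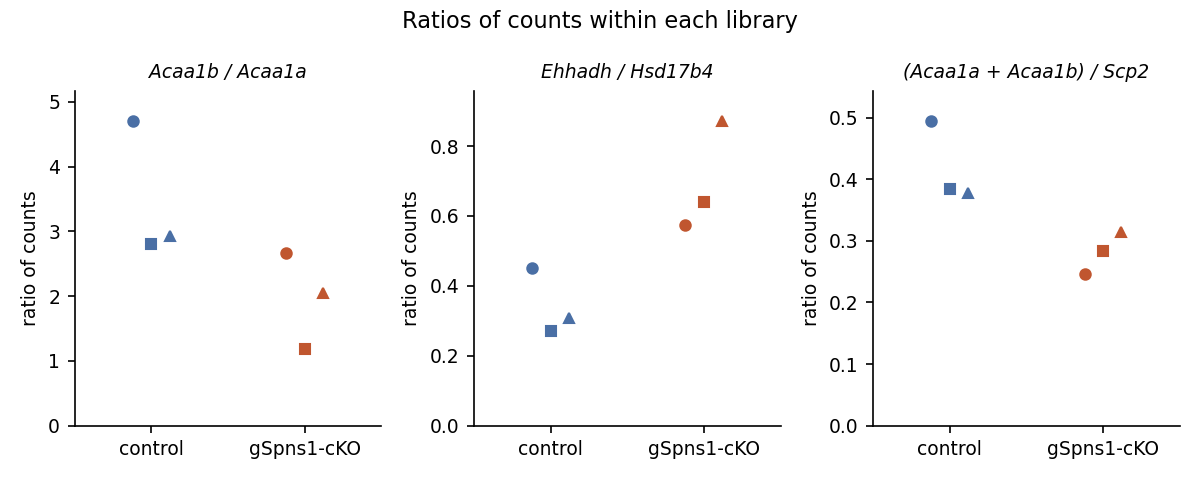
Ratios of counts within each library for *Acaa1b* over *Acaa1a*, *Ehhadh* over *Hsd17b4*, and summed *Acaa1a* and *Acaa1b* over *Scp2*, with 1 point per liver in each group. In none of the 3 ratios do the groups overlap, with *Ehhadh* over *Hsd17b4* higher and the other ratios lower in g*Spns1*-cKO livers.

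*Phyh* (ENSMUSG00000026664, chr2:4919019-4938730, plus strand) encodes phytanoyl-CoA hydroxylase, which starts α-oxidation and is mutated in Refsum disease. It was at 2298, 2159 and 2332 CPM in control livers and at 749, 697 and 682 CPM in g*Spns1*-cKO livers. Both groups were tight, and the means differed by many times the SD, at 2263 ± 91.8 and 709 ± 34.8 CPM (SD, n = 3). For *Phyh* the log2 fold change was -1.67 (SE 0.14, edgeR adjusted p = 2.68e-05).

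*Crat* and *Nudt7* act on the products. *Crat* (ENSMUSG00000026853, chr2:30400471-30415813, minus strand), carnitine acetyltransferase, which passes acetyl groups to carnitine for export and is also found in mitochondria, was at 72.7, 83.3 and 85.6 CPM in control livers and at 27.3, 29.1 and 24.0 CPM in g*Spns1*-cKO livers. The g*Spns1*-cKO livers lay within a few CPM of each other. The log2 fold change of *Crat* was -1.59 (SE 0.12, edgeR adjusted p = 1.06e-05), with the lowest adjusted p of the 9 transcripts. *Crat* shares 59 exonic bases with *Dolpp1* on the opposite strand.

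*Nudt7* (ENSMUSG00000031767, chr8:114133557-114154739, plus strand) encodes a peroxisomal hydrolase that degrades coenzyme A and its esters. It was at 899, 729 and 600 CPM in control livers and at 175, 31.1 and 49.6 CPM in g*Spns1*-cKO livers. All g*Spns1*-cKO livers were far below control, but replicate 1 was several times above the others of its group. The log2 fold change of *Nudt7* was -3.12 (SE 0.78, 95% interval from -5.17 to -1.07, edgeR adjusted p = 0.0325). Without g*Spns1*-cKO replicate 1 it was -4.20 (edgeR adjusted p = 1.18e-05). Leaving out any one of the other libraries gave values between -3.27 and -2.72 that no longer passed, with edgeR adjusted p of 0.0849, 0.0753 and 0.0571 without control replicates 1, 2 and 3, and of 0.0502 and 0.102 without g*Spns1*-cKO replicates 2 and 3.

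The size of the response also varied between livers of a group. Among g*Spns1*-cKO livers, replicate 1 was highest in 6 of the 9 transcripts and replicate 2 lowest in 5. Summed over the 9 transcripts, levels ran from 10005 to 11127 CPM in control and from 3314 to 4969 CPM in g*Spns1*-cKO livers.

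The other genes of the pathway fell in larger numbers than they rose. Of 31 genes for import and activation, further oxidation enzymes and product handling, 29 could be tested, of which 21 were lower and 2 higher, with a median log2 fold change of -0.74. With library size only, 12 were lower and 5 higher. Over all 15449 tested genes, 20.5% were lower and 21.3% higher with TMM, and 971 were lower and 7285 higher with library size only.

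Of the 8 import and activation genes, 6 were lower and 1 was higher. *Slc27a2*, a very long-chain acyl-CoA synthetase, and *Abcd3*, the transporter of branched-chain acyl-CoAs into peroxisomes, had log2 fold changes of -1.49 and -1.41 (edgeR adjusted p = 4.83e-05 and 0.00017). *Abcd2*, a transporter for very long-chain acyl-CoAs, was at 14.5 ± 2.57 CPM in control and rose to 61.7 ± 30.3 CPM in g*Spns1*-cKO livers (SD, n = 3), by 2.09 on the log2 scale (SE 0.42, edgeR adjusted p = 0.0124), and its adjusted p was 0.0506 without control replicate 2. All 10 tested further oxidation enzymes were lower with TMM, and 7 with library size only. Among them *Eci2*, an enoyl-CoA isomerase, *Ech1*, a dienoyl-CoA isomerase, and *Aldh3a2*, the fatty aldehyde dehydrogenase that also serves α-oxidation, had log2 fold changes of -1.43, -1.26 and -1.26 (edgeR adjusted p = 0.00231, 5.84e-05 and 0.000779).

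Product handling was mixed. Of 11 tested genes, 5 were lower and 1 higher with TMM, and 0 were lower and 4 higher with library size only. The median log2 fold change of the 11 with library size only was -0.02, against 0.46 over all genes. *Crot*, carnitine octanoyltransferase, and *Acot8*, a peroxisomal thioesterase, had log2 fold changes of -0.91 and -0.82 (edgeR adjusted p = 0.0213 and 0.0121), while *Acot6*, another thioesterase, was at 1.20 (edgeR adjusted p = 0.0135) from at most 123 counts in a library. The call of *Crot* was lost without control replicates 2 or 3 or g*Spns1*-cKO replicate 2, with edgeR adjusted p of 0.0567, 0.0609 and 0.0810. With library size only neither *Crot* nor *Acot8* passed, at -0.47 and -0.38 (edgeR adjusted p = 0.137 and 0.159).

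Peroxisomal genes outside the pathway were lower as well with TMM. Of 10 tested other matrix enzymes, 9 were lower with TMM and 5 with library size only. Among them were *Hao1*, glycolate oxidase, at a log2 fold change of -1.71, *Ephx2*, soluble epoxide hydrolase, at -1.51 and the protease *Lonp2* at -1.07 (edgeR adjusted p = 1.03e-05, 5.33e-05 and 0.00554). Of 16 peroxins, which build the organelle, 11 were lower and 0 higher, with a median of -0.53, whereas 5 were lower and 4 higher with library size only. The peroxin median with library size only was -0.09, against 0.46 over all genes. *Pex16*, *Pex11a* and *Pex6* had log2 fold changes of -1.57, -1.54 and -1.08 (edgeR adjusted p = 2.34e-05, 0.000514 and 0.000219).

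Among 10 regulators of this pathway 4 were lower and 1 higher with TMM, and 2 were lower and 4 higher with library size only. Their median log2 fold change was -0.18 with TMM and 0.26 with library size only, against 0.01 and 0.46 over all genes. *Ppara* was at 65.6, 59.2 and 79.6 CPM in control livers and at 43.1, 52.1 and 47.8 CPM in g*Spns1*-cKO livers. The groups did not overlap, with a log2 fold change of -0.51 (edgeR adjusted p = 0.00997), but with library size only it was -0.07 (edgeR adjusted p = 0.667). The RXR genes *Rxra* and *Rxrb* had log2 fold changes of -0.87 and -0.78, and the coactivator *Ppargc1a* 1.30 (edgeR adjusted p = 0.00147, 0.00069 and 0.00822). Of 22 genes known to respond to PPARα outside peroxisomal oxidation, 15 were lower and 2 higher with TMM, with a median of -1.01. With library size only, 12 were lower and 3 higher. The 2 higher with TMM, named after their values were seen, were *Cd36* and *Pdk4*, at 1.52 and 1.11 (edgeR adjusted p = 0.00283 and 0.00411). *Acot1*, a cytosolic thioesterase, *Angptl4*, an inhibitor of lipoprotein lipase, and *Fabp1*, the liver fatty acid binding protein, had log2 fold changes of -4.01, -2.86 and -2.60 (edgeR adjusted p = 0.000506, 0.00326 and 0.00145). The ω-hydroxylases *Cyp4a10* and *Cyp4a14*, chosen after their values were seen, did not pass, at -0.10 and 0.27 (edgeR adjusted p = 0.757 and 0.651).

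**Figure D5:**
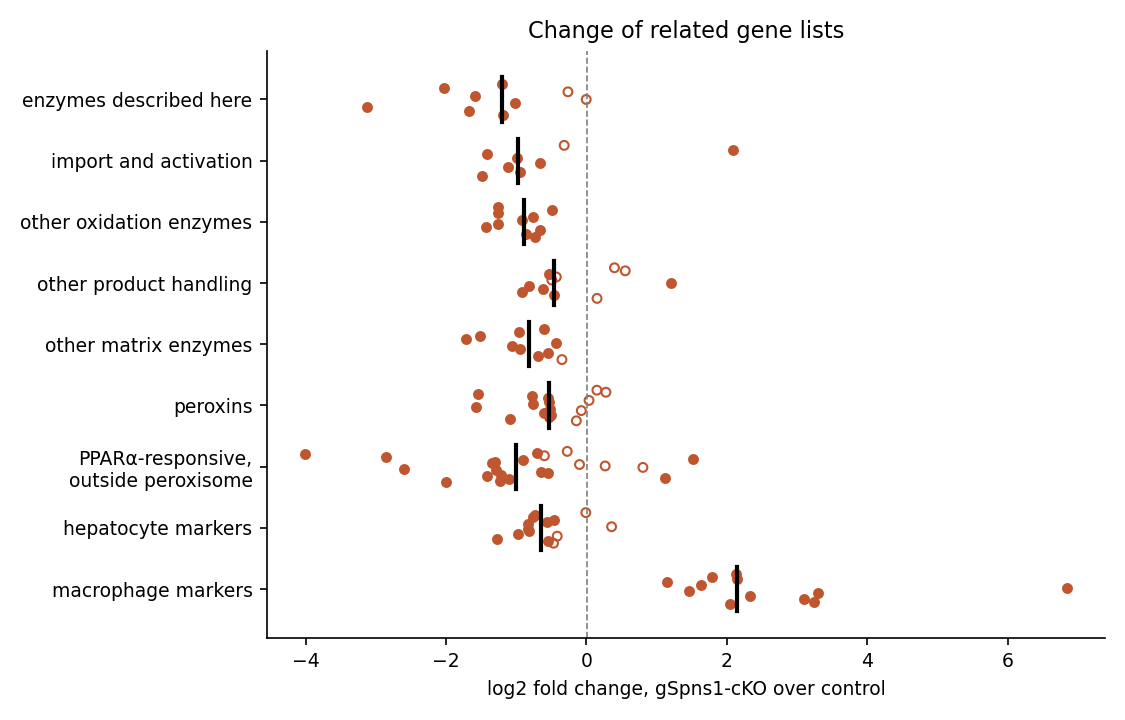
Log2 fold change of each tested gene, g*Spns1*-cKO over control after TMM scaling. The lists hold peroxisomal genes, PPARα-responsive genes, and hepatocyte and macrophage markers. Filled points had an adjusted p under 0.05, black bars are list medians and the dashed line is the median of all tested genes. The 9 oxidation enzymes have a median of -1.20, the PPARα-responsive genes of -1.01, the hepatocyte markers of -0.65 and the macrophage markers of 2.14.

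Markers of liver cell types moved between the same groups. Of 14 hepatocyte markers, 10 were lower, with a median log2 fold change of -0.65. Their summed levels were 126820 to 136762 CPM in control and 76011 to 90027 CPM in g*Spns1*-cKO livers. With library size only 2 of these markers were lower and 1 higher, at a median of -0.20 against 0.46 over all genes. All 12 macrophage markers were higher, from 187 to 305 CPM summed in control to 821 to 1182 CPM in g*Spns1*-cKO livers, as were all 6 cholangiocyte markers, from 44.3 to 62.9 CPM to 171 to 280 CPM. Of the stellate cell markers 6 of 8 were higher (192 to 225 CPM against 522 to 553 CPM), of the endothelial markers 5 of 7 (141 to 158 CPM against 208 to 255 CPM) and of the lymphocyte markers 2 of 7 (6.88 to 9.75 CPM against 21.2 to 24.5 CPM). Single genes made up a large part of some of these sums. For hepatocytes this was *Alb*, with a mean of 69297 CPM in control and 41855 CPM in g*Spns1*-cKO livers. For cholangiocytes it was *Spp1* (44.6 and 195 CPM), and for stellate cells *Dcn* (113 and 335 CPM). For lymphocytes it was *Ptprc*, which all leukocytes express (4.88 and 16.8 CPM). The T and B cell markers *Cd3e*, *Cd8a*, *Trbc2*, *Cd79a* and *Ms4a1* did not pass the threshold. Of 5 tested erythroid markers 2 were higher and 1 lower, with summed levels that overlapped between groups. These sums mix opposite changes. Mean *Alas2* was 87.8 CPM in control and 9.78 CPM in g*Spns1*-cKO livers. *Hbb-bs* was at 29.1 and 62.9 CPM, and *Hba-a1* at 21.1 and 47.3 CPM. Hepatocyte markers led these lists in every liver, and no listed marker was at 0 in all libraries. The part of cell composition in the falls of the 9 transcripts was not tested.

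The genes whose profile over the 6 libraries lay nearest to the mean profile of the 9 transcripts were *Acy3*, *Uck1*, *Gm20319*, *Ube2h* and *Glo1*, at Euclidean distances of 0.0710, 0.0994, 0.155, 0.164 and 0.168 on centred log2 CPM, among 7999 genes whose mean level reached 10 CPM. Their log2 fold changes were between -1.46 and -1.34. The distance follows the difference between the groups as well as the spread within them.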

How the data were processed

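RNA-Seq was analysed for 3 control and 3 g*Spns1*-cKO livers, grouped by sample titles. The deposited whole-number counts per gene had been made with fastp, HISAT2 2.0.5 and featureCounts 1.5.0-p3 on mm10, per the submitters' processing notes. The strand setting of the counting is not given in the sources used here. The deposited FPKM values divide counts by gene length and a library total, which was 0.837 to 0.880 times the summed counts in control and 1.17 to 1.20 times in g*Spns1*-cKO libraries, and gene lengths were taken as the authors deposited them. Columns of the authors' own comparison (group means, fold changes and p-values) were not used.

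Counts were tested in R 4.3.3 with edgeR 4.0.16 (filterByExpr, TMM, quasi-likelihood F test, Benjamini-Hochberg adjustment over 15449 genes, limit 0.05), since the methods name no test. SE values come from the same fit, and CPM are over TMM-scaled library sizes. Ratios were tested by two-sided exact permutation. On simulated counts of 14697 genes, 142 of 188 changed genes were called. The simulation changed 200 genes, balanced between higher and lower, without a shift in scaling between the groups. It therefore does not show how the test behaves where 41.8% of genes are called, as here. Alternatives used DESeq2 1.42.0, limma 3.58.1, other scalings, filters and thresholds, a replicate block, summed thiolases and leaving out each library.

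A count of 3 corresponded to 0.0763 to 0.118 CPM, which covers counting error only. No 2 libraries of a group agreed within sampling noise (chi-square per gene 38.8 to 114), and each library was counted as 1 replicate. The controls were littermates per the methods, but the labels do not say which animals shared a litter, so litter could not enter the fit.

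The 9 transcripts and all gene lists were chosen with earlier results of these data known. Named genes were the 9 transcripts, *Spns1*, the 3 largest changes past the threshold in each of 7 peroxisomal, regulatory and PPARα lists, *Abcd3*, *Ppara* and *Rxra*, and the 5 genes with the most similar profile, and 1 further gene of the rule is not reported here. Positions are on GRCm38, with gene models of GENCODE M21, and promoter sequences are from RefSeq (GRCm38.p6).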

Additional observations from a re-analysis of the deposited data

How the results depend on the processing

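The number of the 9 transcripts called was 7 with DESeq2, with limma-voom, under both other scalings, with at least 10 counts in every library and with the replicate block, and 6 with at least 1 count in any library, where the adjusted p of *Nudt7* was 0.0717. It was 6 to 8 when each library was left out. Of 125 alternative values for single transcripts, 109 kept their direction and side of the threshold, 6 lost the call (all *Nudt7*), 1 gained it (*Acox2*) and 9 changed sign, all of them *Acox2* or *Ehhadh* and none past the threshold. *Acox2* was 0.18 with library size only. *Ehhadh* was 0.013 with limma-voom, 0.44 with library size only, 0.13 with upper-quartile scaling, 0.040 with at least 10 counts in every library, 0.016 with the replicate block and between -0.16 and 0.19 with each library left out (0.19, 0.025 and 0.085 without control replicate 1 and g*Spns1*-cKO replicates 1 and 2).

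With library size only, 7285 genes were higher and 971 lower, and of the 29 pathway genes 12 were lower and 5 higher. At an adjusted p under 0.01, 3890 genes were called, 1983 higher and 1907 lower, and 0 pathway genes were higher. With each library left out, 4490 to 6429 genes and 20 to 24 pathway genes were called, of which 1 to 3 higher, with 1 higher without control replicate 2. The cause of these shifts was not tested. The ratios kept their direction with each library left out, at 0.86 to 1.25 for *Ehhadh* over *Hsd17b4*, -1.12 to -0.54 for *Acaa1b* over *Acaa1a* and -0.66 to -0.45 for both over *Scp2* (log2).

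Samples with the same replicate number did not visibly deviate together (correlations 0.037, 0.033 and -0.028). Control replicates 1 and 2 correlated best with the g*Spns1*-cKO sample of their own number, and control replicate 3 did not. With 3 livers per group, correlations near 0 cannot exclude that the numbers are a pairing. With a replicate block 6099 genes, 7 of the 9 transcripts and 24 pathway genes were called, and the paired ratio differences, which equal the unpaired ones by arithmetic (1.03, -0.86 and -0.57 on the log2 scale, in the same order), had an exact sign-flip p = 0.25, the smallest that 3 pairs allow.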
